A study of Mus musculus with 6 samples.

Results

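The collagen chain genes of the mouse were followed in satellite cells, the stem cells that repair skeletal muscle. The libraries were labelled wild type or iKO for Yy1, the gene of the transcription factor YY1. Members were all gene symbols listed in both deposited expression tables that consist of Col, a type number, the letter a and a chain number. This gave 44 genes of the 24067 symbols common to the tables, covering 27 collagen types. They comprise 11 fibrillar chains, 6 chains of the basement membrane collagen type IV, and 27 chains of other types. Groups were measured by sequencing of polyadenylated RNA, with 1 library each: activated satellite cells (ASC, cultured for 36 h) labelled iKO for Yy1, ASC of the wild type (WT), freshly isolated satellite cells (FISC) labelled iKO for Yy1, and FISC of the wild type. In addition, YY1 was immunoprecipitated from ASC chromatin in 1 library whose title gives C57, with 1 input library. The labels call the cells adult muscle satellite cells. The sources used here do not give the promoter that drove the deletion, the animals' age or whether animals were pooled. With 1 library per group no difference has a replicate check, so the values describe these libraries, without standard errors or p-values.

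Collagens are secreted proteins built of 3 chains wound into a triple helix. Fibrillar chains assemble into the fibrils of the interstitial matrix, type IV chains form the network of the basement membrane, and the other types decorate fibrils, anchor membranes or span the plasma membrane. Satellite cells lie between the muscle fibre and its basal lamina, and in mice they deposit part of their own niche: type V collagen acts through the calcitonin receptor to hold them in quiescence, and type VI collagen is needed for their self-renewal.

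The level of a gene is given in FPKM, fragments scaled to transcript length and library size, which allows genes of different length to be compared. Yy1 itself stood at 2.03 FPKM in the ASC iKO library and 55.2 FPKM in the ASC WT library, and at 20.1 FPKM in the FISC iKO library and 51.0 FPKM in the FISC WT library. Total depth is unknown. The steps of the low values put the ASC iKO library at 0.667 reads per read of the ASC WT library, and the FISC pair at 1.00. Between 10657 and 10947 genes reached 1 FPKM per library. A single small RNA gene, Mir762, held 39.8% of all FPKM of the ASC iKO library. Of the markers of the labelled cell type, Pax7 was listed at 6.19 FPKM in ASC iKO and 28.3 FPKM in ASC WT, and at 78.3 FPKM in FISC iKO and 61.8 FPKM in FISC WT. Myod1, the myogenic determination factor, stood at 598 FPKM in ASC iKO and 698 FPKM in ASC WT, and at 558 FPKM in FISC iKO and 411 FPKM in FISC WT.

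Of the 44 collagen genes, 18 stayed below 1 FPKM in all 4 libraries, 26 reached it in at least 1 and 11 in all 4. The 18 were Col4a3, Col4a4, Col4a6, Col6a4, Col6a5, Col7a1, Col8a2, Col9a1, Col9a2, Col9a3, Col10a1, Col11a1, Col14a1, Col22a1, Col23a1, Col24a1, Col25a1 and Col28a1. More members were above this level in freshly isolated than in activated cells. The ASC iKO library had 14 members at 1 FPKM or more and the ASC WT library 16, while FISC iKO had 24 and FISC WT 25. At 10 FPKM or more the numbers were 6 in ASC iKO and 5 in ASC WT, and 14 in FISC iKO and 15 in FISC WT. The summed level of all 44 chains was 197 FPKM in ASC iKO and 392 FPKM in ASC WT, and 879.5 FPKM in FISC iKO and 1101 FPKM in FISC WT. In both states the iKO library thus had the lower sum. In such bulk libraries, fewer cells of a type and less RNA per cell cannot be told apart.

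**Figure D1:**
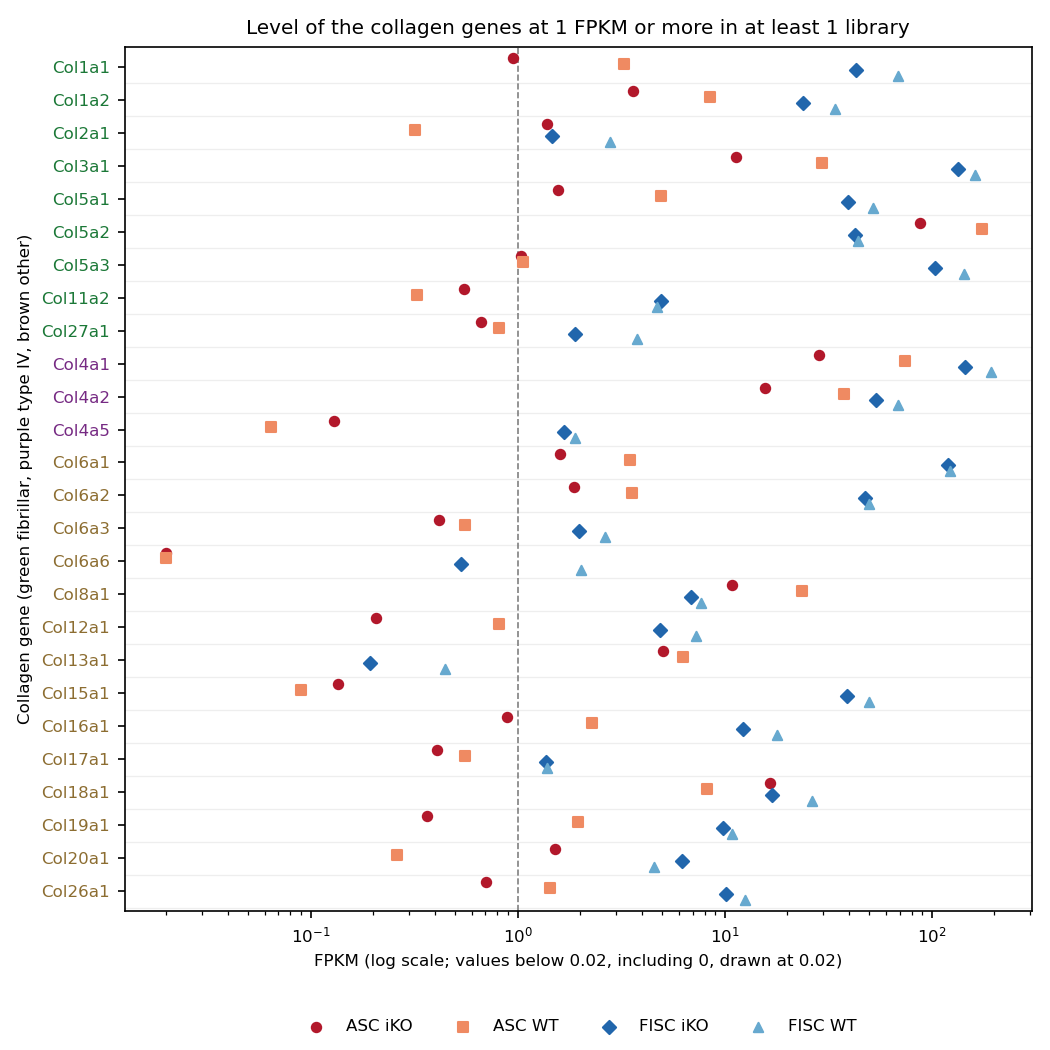
Level of each collagen gene that reached 1 FPKM in at least 1 library, in FPKM on a logarithmic axis, for the 4 libraries. Points for activated cells lie left of those for freshly isolated cells for most genes, with Col5a2, Col8a1 and Col13a1 as exceptions in the wild type.

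The first comparison asks how the collagen genes stood in activated cells labelled iKO for Yy1. The ratio used is log2 of FPKM + 1, iKO over WT, and a gene is counted as lower or higher when FPKM + 1 differs at least 2-fold. It was computed where at least 1 of the libraries reached 1 FPKM. In ASC, 18 of the 44 members passed this filter, 12 of them with 1 FPKM or more in both libraries. Col1a1, Col16a1, Col19a1 and Col26a1 passed through the WT library alone, and Col2a1 and Col20a1 through the iKO library alone. The filter thus fixed the direction of their ratios. The other 26 members were below 1 FPKM in both ASC libraries, and Col6a4, Col6a5 and Col6a6 were listed at 0 in both. Of the 18, 8 were at least 2-fold lower in iKO and 0 at least 2-fold higher, against 8.26% of the 11215 genes tested that were lower and 8.74% that were higher. With a pseudocount of 0.1 FPKM the members were 10 lower and 3 higher, Col20a1 at 2.15, Col2a1 at 1.82 and Col18a1 at 1.008, and the genes tested 1388 lower and 1292 higher. After subtraction of the median of genes of like locus length, 2 members were lower and 1 was higher. Of the 11215 genes tested, 750 were then lower and 632 higher. As measured, 19.5% of genes in the longest of 10 length classes, which held 7 of the 18 members, were at least 2-fold lower. Among the 12 members with 1 FPKM in both libraries 6 were lower, against 6.96% of all genes, and among the 16 with a mean of 1 FPKM 8 were, against 8.28%. The median log2 ratio was −0.89 over the 18 members and −0.00 over all genes tested. Of the 18, 15 lay below 0, beside 50.2% of all genes tested, but this count includes the members whose direction the filter fixed. Among the 12 members with 1 FPKM in both libraries, 11 lay below 0, beside 49.3% of all genes, with a median of −1.02.

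The fibrillar chains held 4 of the 8 lower genes, the type IV chains 2 and the other types 2. The median log2 ratio was −1.05 for the 7 fibrillar chains with a ratio, −1.29 for the 2 type IV chains and −0.67 for the 9 others. Of these, 5 fibrillar, 2 type IV and 5 other chains had 1 FPKM or more in both libraries, and the filter fixed the direction of the rest. Among the 8 lower genes, Col1a1 and Col19a1 passed through the WT library alone. Type I collagen, the main fibril-forming collagen of connective tissue, was sparse in activated cells. Its α1 chain gene Col1a1 (mm9, chr11:94797583-94813170) stood at 0.946 FPKM in ASC iKO and 3.27 FPKM in ASC WT, a log2 ratio of −1.13. The α2 chain gene Col1a2 (chr6:4455696-4491543) stood at 3.61 FPKM in ASC iKO and 8.52 FPKM in ASC WT, a log2 ratio of −1.05. Both chains of the type I heterotrimer were thus lower in iKO.

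Col3a1 (chr1:45368382-45406551), the chain of type III collagen that codistributes with type I in pliable tissues, stood at 11.3 FPKM in ASC iKO and 29.5 FPKM in ASC WT, a log2 ratio of −1.31. The type V chains, which seed fibrils and limit their width, differed among themselves. Col5a1 (chr2:27741944-27895030), the chain found in most type V trimers, was listed at 1.58 FPKM in ASC iKO and 4.93 FPKM in ASC WT, a log2 ratio of −1.20. Col5a2 (chr1:45431175-45560127) was the highest collagen gene of both activated libraries, with 88.3 FPKM in ASC iKO and 176 FPKM in ASC WT. Its log2 ratio of −0.99 corresponds to 1.98-fold, just inside the 2-fold limit, and it passed the limit at −1.13 when the libraries were scaled to one upper quartile. Col5a3 (chr9:20574493-20619478), the least widespread type V chain, was listed at 1.04 FPKM in ASC iKO and 1.06 FPKM in ASC WT. Col2a1, the main cartilage collagen, was at 1.38 FPKM in ASC iKO and 0.319 FPKM in ASC WT, a log2 ratio of 0.85 between low values.

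Type IV collagen is the scaffold of basement membranes, and its widespread form contains the α1 and α2 chains, whose genes lie head to head. In mm9 the listed locus of Col4a1 (chr8:11198422-11312826) ends 1 bp before that of Col4a2 (chr8:11312828-11449287). Col4a1 stood at 28.4 FPKM in ASC iKO and 74.6 FPKM in ASC WT, the lowest log2 ratio of the 18 members at −1.36. Col4a2 stood at 15.6 FPKM in ASC iKO and 37.6 FPKM in ASC WT, a log2 ratio of −1.21. The neighbouring genes were thus lower by similar amounts, and no other type IV chain reached 1 FPKM in ASC. Their promoters, and that of Col3a1, are shown because these 3 genes had the lowest ratios of all members in ASC. The sequences are from RefSeq (GRCm38.p6, a later build than that of the loci above) and run from 250 bases before to 50 bases after the gene's start, 5′ to 3′ on the gene's strand. Col4a1 spans chr8:11312777-11313076 on the minus strand, Col4a2 chr8:11312555-11312854 on the plus strand and Col3a1 chr1:45311288-45311587 on the plus strand. Capitals mark the CCAAT box, written CCAAT, the GC box, written GGGCGG, and the TATA box, written TATAAA, on either strand.
Col4a1 promoter: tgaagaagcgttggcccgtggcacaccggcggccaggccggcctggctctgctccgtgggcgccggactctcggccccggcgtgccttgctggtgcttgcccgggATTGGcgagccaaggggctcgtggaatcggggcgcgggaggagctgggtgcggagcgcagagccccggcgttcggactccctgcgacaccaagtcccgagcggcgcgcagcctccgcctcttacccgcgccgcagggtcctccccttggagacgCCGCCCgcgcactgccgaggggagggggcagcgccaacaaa
Col4a2 promoter: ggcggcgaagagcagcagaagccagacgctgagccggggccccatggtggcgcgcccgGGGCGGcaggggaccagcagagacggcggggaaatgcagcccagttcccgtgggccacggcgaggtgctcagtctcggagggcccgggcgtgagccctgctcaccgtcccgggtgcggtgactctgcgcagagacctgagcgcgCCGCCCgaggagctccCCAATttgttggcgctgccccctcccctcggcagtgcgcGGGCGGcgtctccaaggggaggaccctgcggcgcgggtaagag
Col3a1 promoter: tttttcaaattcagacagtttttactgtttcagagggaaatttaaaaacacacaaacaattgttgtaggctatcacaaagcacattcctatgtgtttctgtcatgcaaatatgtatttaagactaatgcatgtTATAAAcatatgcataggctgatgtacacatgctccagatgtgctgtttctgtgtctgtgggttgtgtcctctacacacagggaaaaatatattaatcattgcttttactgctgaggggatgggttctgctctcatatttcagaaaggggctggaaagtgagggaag
The starts of Col4a1 and Col4a2 lie 21 bases apart, and the windows share 78 bases read on opposite strands. Both windows are rich in G and C, at 74.0% for Col4a1 and 73.7% for Col4a2, while that of Col3a1 has 37.7% and holds a TATAAA.

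The beaded-filament collagen type VI, a component of the muscle endomysium, was low in activated cells. Col6a1 was listed at 1.596 FPKM in ASC iKO and 3.49 FPKM in ASC WT, a log2 ratio of −0.79. Col6a2 was listed at 1.87 FPKM in ASC iKO and 3.58 FPKM in ASC WT, a log2 ratio of −0.67. Neither reached 2-fold on the scale of FPKM + 1, and Col6a3 stayed below 1 FPKM in both libraries. Col8a1 (chr16:57624368-57754850), a short chain that forms hexagonal networks in vessel walls and the eye, stood at 10.8 FPKM in ASC iKO and 23.7 FPKM in ASC WT, a log2 ratio of −1.06.

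The fibril-associated chains bind the surface of fibrils. Col19a1 (chr1:24264521-24594276) was listed at 0.366 FPKM in ASC iKO and 1.96 FPKM in ASC WT, a log2 ratio of −1.11, and Col16a1 at 0.890 FPKM in ASC iKO and 2.29 FPKM in ASC WT, a log2 ratio of −0.80. Col20a1 stood the other way, with 1.51 FPKM in ASC iKO and 0.263 FPKM in ASC WT, a log2 ratio of 0.99. Col26a1, a chain of a small type outside these families, was listed at 0.705 FPKM in ASC iKO and 1.44 FPKM in ASC WT. Col13a1, a transmembrane collagen of cell contacts such as the neuromuscular junction, was listed at 5.04 FPKM in ASC iKO and 6.30 FPKM in ASC WT, a log2 ratio of −0.27.

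Among the members above 10 FPKM in activated cells, Col18a1 was the exception to the lower values in iKO. It encodes a basement membrane collagen whose C-terminal fragment is endostatin. Col18a1 (mm9, chr10:76514923-76629275) stood at 16.7 FPKM in ASC iKO and 8.23 FPKM in ASC WT. The log2 ratio of 0.94, 1.91-fold on FPKM + 1, was just inside the 2-fold limit. The table gives a single value for the gene, although RefSeq lists 2 start regions that lie 52.8 kb apart on the minus strand. They are shown because the deposited value does not separate them. In GRCm38.p6 the upstream one spans chr10:77166481-77166780 and the downstream one chr10:77113656-77113955, with capitals as before.
Col18a1 upstream promoter: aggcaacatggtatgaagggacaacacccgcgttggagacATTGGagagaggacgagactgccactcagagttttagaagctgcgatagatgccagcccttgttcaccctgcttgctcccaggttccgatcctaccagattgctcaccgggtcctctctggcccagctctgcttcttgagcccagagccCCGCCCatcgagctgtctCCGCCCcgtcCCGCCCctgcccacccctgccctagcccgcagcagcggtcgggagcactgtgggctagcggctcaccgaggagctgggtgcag
Col18a1 downstream promoter: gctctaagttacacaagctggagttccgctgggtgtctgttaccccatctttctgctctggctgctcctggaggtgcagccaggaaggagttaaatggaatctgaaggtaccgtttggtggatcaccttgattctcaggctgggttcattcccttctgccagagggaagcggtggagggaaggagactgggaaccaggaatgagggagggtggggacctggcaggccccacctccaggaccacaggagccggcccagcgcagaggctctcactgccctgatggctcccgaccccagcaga
The upstream window holds 3 GGGCGG and 1 CCAAT, all on the opposite strand, and the downstream window none of the 4 motifs searched. Which start was used in these cells was not measured.

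**Figure D2:**
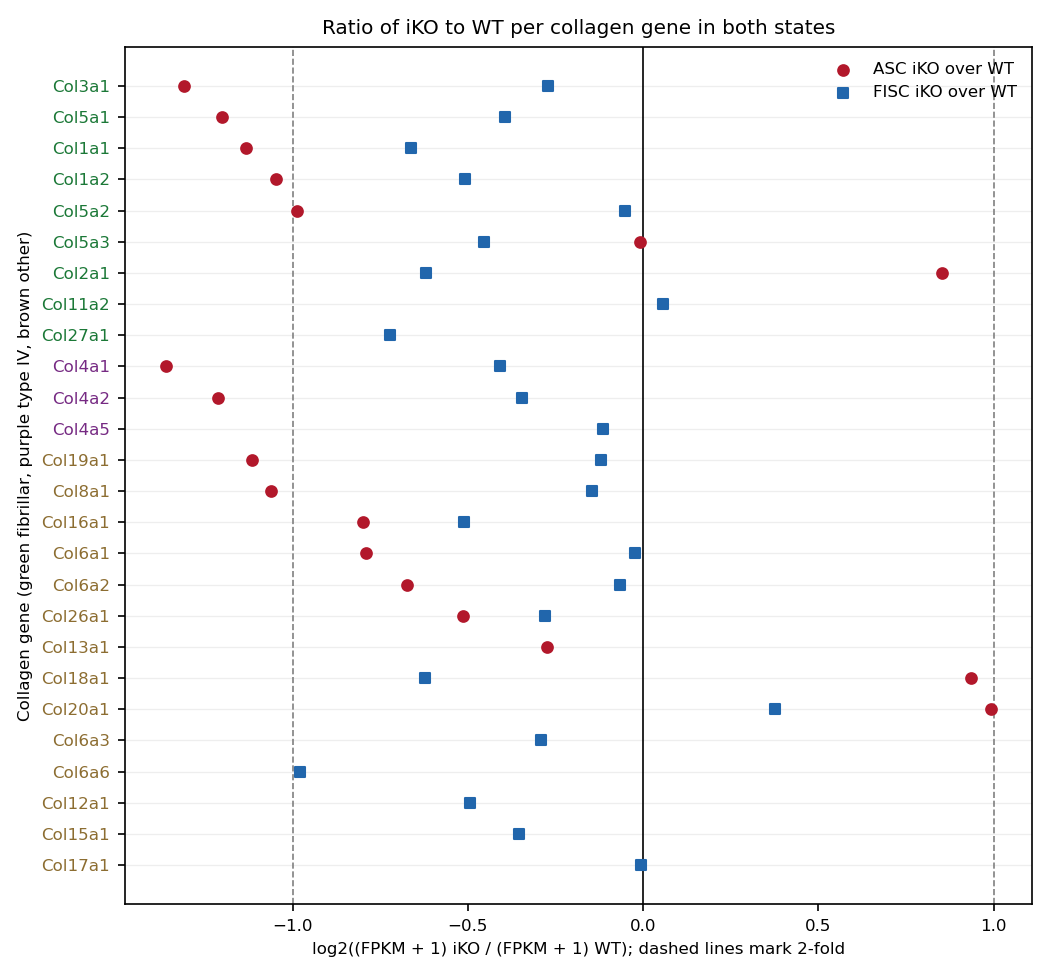
Log2 ratio of FPKM + 1, iKO over WT, for each collagen gene that passed the filter, in activated and in freshly isolated cells, with the 2-fold limits as lines. In activated cells 8 genes lie past the lower limit, and in freshly isolated cells none does.

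In freshly isolated cells the same comparison gave smaller differences. Yy1 itself was also less far apart there, at 20.1 FPKM in FISC iKO and 51.0 FPKM in FISC WT. Of the 44 members 25 passed the filter, 24 of them with 1 FPKM or more in both libraries and Col6a6 through the WT library alone. None was at least 2-fold lower and none higher in iKO. Of the 11229 genes tested only 0.721% were lower and 0.677% higher, so 0 of 25 is close to the background. The background was 0.594% lower among genes with 1 FPKM in both libraries, where 0 of 24 members were, and 0.704% among genes with a mean of 1 FPKM, where 0 of 25 were. Of the 25 members, 23 had a ratio below 0, beside 50.4% of all genes tested, and so had 22 of the 24 with 1 FPKM in both libraries, beside 50.7%. The median log2 ratio was −0.35 for the members and −0.00 for all genes. The medians by class were −0.45 for 9 fibrillar chains, −0.35 for 3 type IV chains and −0.28 for 13 others.

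The collagen genes with the highest levels in freshly isolated cells were spread over the classes. Col4a1 led, with 145 FPKM in FISC iKO and 193 FPKM in FISC WT, a log2 ratio of −0.41, and Col4a2 stood at 53.7 FPKM in FISC iKO and 68.4 FPKM in FISC WT. Col3a1 followed with 134 FPKM in FISC iKO and 162 FPKM in FISC WT. Col5a3, low in activated cells, was listed at 104 FPKM in FISC iKO and 143 FPKM in FISC WT, a log2 ratio of −0.45. Col6a1 had nearly equal values, 121 FPKM in FISC iKO and 122 FPKM in FISC WT, and so had Col6a2, at 47.5 FPKM in FISC iKO and 49.8 FPKM in FISC WT. Col6a3, which joins those chains in the usual type VI monomer, was listed at 1.99 FPKM in FISC iKO and 2.66 FPKM in FISC WT, far below its partners per unit length.

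The type I chains were further apart than the type VI chains. Col1a1 stood at 42.9 FPKM in FISC iKO and 68.6 FPKM in FISC WT, a log2 ratio of −0.66, and Col1a2 at 23.8 FPKM in FISC iKO and 34.3 FPKM in FISC WT, a log2 ratio of −0.51. Col5a1 stood at 39.4 FPKM in FISC iKO and 52.1 FPKM in FISC WT, and Col5a2 at 42.6 FPKM in FISC iKO and 44.2 FPKM in FISC WT. Col15a1, a relative of Col18a1 in the basement membrane zone of muscle, was listed at 38.9 FPKM in FISC iKO and 49.96 FPKM in FISC WT. Col18a1 stood at 16.9 FPKM in FISC iKO and 26.6 FPKM in FISC WT, a log2 ratio of −0.62, and so on the opposite side from its ratio in activated cells.

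Among the fibril-associated chains, Col16a1 was at 12.2 FPKM in FISC iKO and 17.9 FPKM in FISC WT, Col19a1 at 9.87 FPKM in FISC iKO and 10.8 FPKM in FISC WT, and Col12a1 at 4.88 FPKM in FISC iKO and 7.29 FPKM in FISC WT. Col20a1 was 1 of the 2 members with a ratio above 0, at 6.23 FPKM in FISC iKO and 4.57 FPKM in FISC WT. The other was Col11a2, a fibrillar chain of cartilage, at 4.92 FPKM in FISC iKO and 4.70 FPKM in FISC WT. The lowest ratio was that of Col6a6, −0.98, between the low values of 0.534 FPKM in FISC iKO and 2.02 FPKM in FISC WT. The remaining members that passed, Col2a1, Col4a5, Col6a3, Col8a1, Col17a1, Col26a1 and Col27a1, had log2 ratios between −0.72 and −0.01.

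Of the 17 members with a ratio in both states, 14 lay below 0 in both and Col20a1 above 0 in both. Col2a1 and Col18a1 lay above 0 in ASC and below 0 in FISC. In ASC the filter had fixed Col1a1, Col16a1, Col19a1 and Col26a1 below 0 and Col2a1 and Col20a1 above 0. None was at least 2-fold lower in both states, as none was in FISC alone. Of all genes tested, 50.2% lay below 0 in ASC and 50.4% in FISC. Their share below 0 in both states is not given here, so the count of 14 has no background beside it. Across the 17 members, which share the same 4 libraries, Pearson's r between the ratios in ASC and in FISC was 0.05 and Spearman's rho 0.04.

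Activated and freshly isolated cells stood further apart than the genotypes. The activated and the freshly isolated libraries come from separate tables, so they were scaled to one upper quartile and are described without a test. In iKO, 25 members had a ratio, of which 18 were at least 2-fold lower in ASC than in FISC and 1 was higher, with a median log2 ratio of −2.36. The background was 27.2% of genes lower and 22.4% higher, with a median of −0.06. In WT, 26 members had a ratio, of which 22 were at least 2-fold lower and 3 higher, with a median of −2.19. The background there was 21.4% lower and 22.2% higher, with a median of 0.09. Many of these passed the filter through the freshly isolated library alone. Among members with 1 FPKM or more in both libraries, 9 of 13 were lower in iKO, against 23.2% of all genes, and 13 of 15 in WT, against 18.2%. These ratios share their libraries with the iKO comparisons above.

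The members differed in size and direction between the states. Col5a3, Col6a1, Col15a1 and Col1a1 had the lowest ratios. Col5a3 had a log2 ratio, ASC over FISC, of −5.92 in iKO and −6.30 in WT, Col6a1 of −5.84 in iKO and −5.05 in WT, and Col15a1 of −5.19 in iKO and −5.57 in WT. Col1a1 had −4.72 in iKO and −4.29 in WT. The type IV pair was less far apart, with Col4a1 at −2.81 in iKO and −1.71 in WT, and Col4a2 at −2.20 in iKO and −1.19 in WT. In WT, 3 members were higher in activated cells, Col13a1 by a log2 ratio of 2.04, Col5a2 by 1.62 and Col8a1 by 1.16. In iKO the ratios were 1.92 for Col13a1, 0.53 for Col5a2 and 0.12 for Col8a1, so that Col13a1 alone was past 2-fold there. The sign of the values for Col5a2 and Col8a1 in iKO depended on the scaling: with equal sums of FPKM they were −0.17 and −0.49, where the ASC iKO sum includes the 39.8% held by Mir762. As deposited, Col5a2 stood at 88.3 FPKM in ASC iKO and 42.6 FPKM in FISC iKO, and Col8a1 at 10.8 FPKM in ASC iKO and 6.89 FPKM in FISC iKO.

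The makeup of the collagen mRNA, as the share of each chain in the summed collagen FPKM of a library, does not depend on scaling between libraries. Col5a2 held 44.8% in ASC iKO and 44.9% in ASC WT, against 4.84% in FISC iKO and 4.02% in FISC WT. Col5a3 held 0.53% in ASC iKO and 0.27% in ASC WT, against 11.8% in FISC iKO and 12.98% in FISC WT. The dominant type V chain was thus Col5a2 in activated cells and Col5a3 in freshly isolated cells, in both genotypes. The type VI chains together held 1.97% in ASC iKO and 1.95% in ASC WT, against 19.4% in FISC iKO and 16.1% in FISC WT.

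Within activated cells the shares of the basement membrane chains differed between the genotypes. The type IV chains held 22.5% in ASC iKO and 28.7% in ASC WT. Col18a1 held 8.46% in ASC iKO and 2.102% in ASC WT, and had rank 3 among the members in ASC iKO and rank 7 in ASC WT. The fibrillar chains together held 55.6% in ASC iKO and 57.4% in ASC WT. In freshly isolated cells the type IV share was 22.9% in FISC iKO and 23.997% in FISC WT, and the share of Col18a1 1.92% in FISC iKO and 2.41% in FISC WT.

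**Figure D3:**
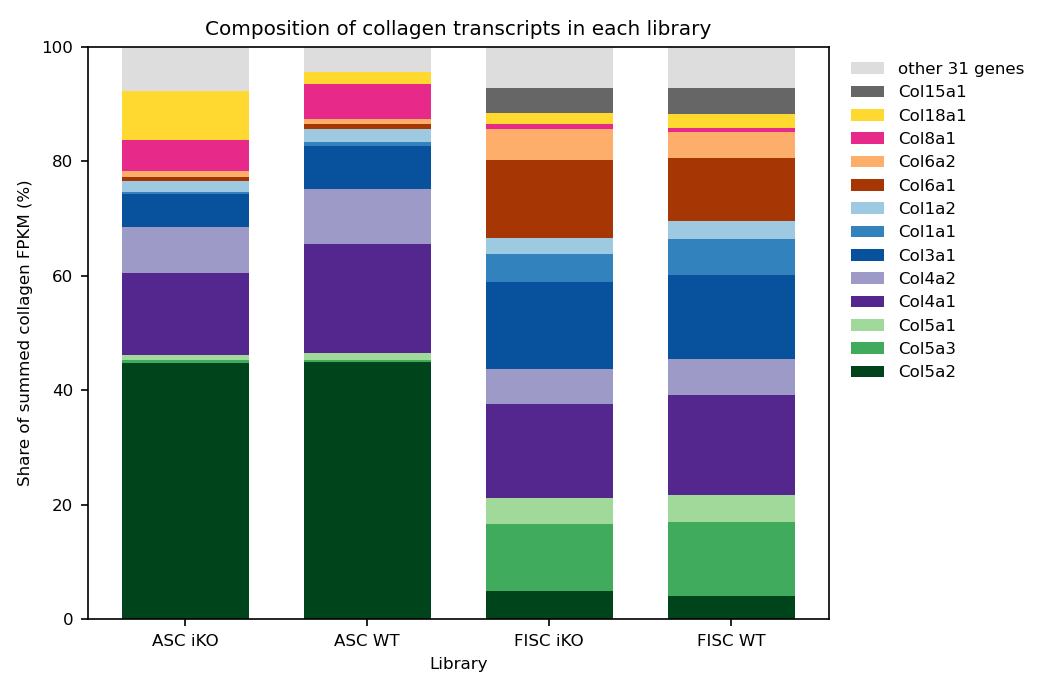
Share of the leading collagen chains, with the other chains together, in the summed collagen FPKM of each library, in percent. The 3 type V chains make up 46.2% in ASC iKO and 46.5% in ASC WT, and 21.1% in FISC iKO and 21.7% in FISC WT, while the type VI chains make up 1.97% in ASC iKO and 1.95% in ASC WT.

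Chains that join in a trimer did not keep a fixed ratio of mRNA. The level of Col1a1 per level of Col1a2, in FPKM, was 0.262 in ASC iKO and 0.383 in ASC WT, against 1.80 in FISC iKO and 2.00 in FISC WT. Type I trimers contain more α1 than α2 chains. Col5a2 exceeded Col5a1, its partner in the common type V trimer, by 56.1-fold in ASC iKO and 35.7-fold in ASC WT, against a ratio of 1.08 in FISC iKO and 0.849 in FISC WT. The type IV pair kept the narrowest range, with Col4a1 per Col4a2 at 1.82 in ASC iKO and 1.99 in ASC WT, and 2.71 in FISC iKO and 2.82 in FISC WT. The type VI pair, Col6a1 per Col6a2, stood at 0.852 in ASC iKO and 0.974 in ASC WT, and 2.54 in FISC iKO and 2.46 in FISC WT.

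Long genes as a whole were lower in the ASC iKO library, and collagen genes are long. The median listed locus of the 44 members was 115 kb, within a range of 15.6 to 419 kb. The 18 members with a ratio in ASC had a median of 82.9 kb, against 24.5 kb for all genes tested. In ASC the median log2 ratio of all genes went down across the 10 classes of locus length, being 0.67 in the shortest class and −0.48 in the longest. The share of genes at least 2-fold lower was 2.41% in the shortest class and 19.5% in the longest. Spearman's rho between ratio and locus length was −0.44 over all genes in ASC and −0.25 over the 18 members. In FISC it was −0.06 over all genes and −0.10 over 25 members, and the medians of the shortest and the longest class were 0.04 and −0.04.

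When the median of its length class was taken from each gene's ratio in ASC, 2 of the 18 members were at least 2-fold lower. These were Col1a1 at −1.25 and Col3a1 at −1.14. On this scale 750 of the 11215 genes tested were lower and 632 higher. Col1a1 has the shortest locus of all members. Col4a1 was then at −0.94, Col1a2 at −0.87, Col4a2 at −0.73, Col5a1 at −0.72, Col19a1 at −0.64, Col8a1 at −0.58 and Col5a2 at −0.51. Col18a1, whose locus spans 114 kb, came to 1.35 and was past 2-fold higher, while 13 of the 18 stayed below their class median and the members' median was −0.61. Scaling both ASC libraries to one upper quartile had the opposite effect: it moved the median of all genes to −0.12 and gave 1199 genes lower and 653 higher, in place of 926 lower and 980 higher, with 9 members lower. The median loci of the classes ran between 2.81 and 184 kb. The part of locus length in the collagen values was not tested beyond this subtraction.

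**Figure D4:**
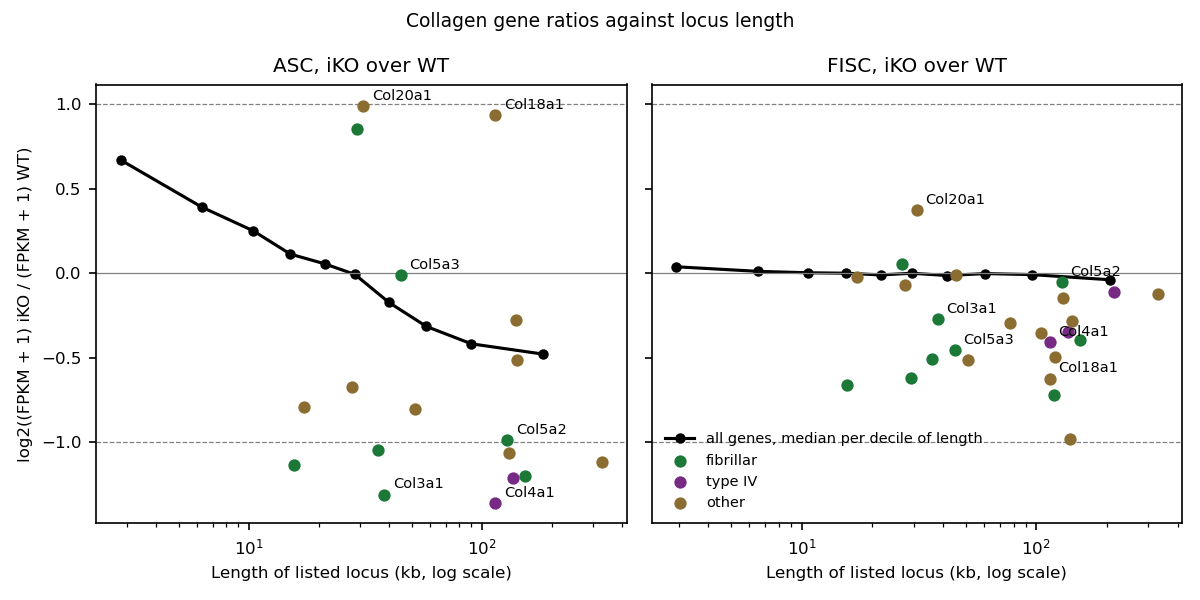
Log2 ratio of FPKM + 1, iKO over WT, against the length of the listed locus in kb on a logarithmic axis, in activated and in freshly isolated cells, with the median of all genes in each of 10 length classes as a line. In activated cells the line runs downward, between 0.67 and −0.48, and 13 of 18 collagen genes lie below it.

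The authors' YY1 peak list from activated cells holds 2031 peaks. A peak summit lay inside or within 10 kb of 6 of the 44 collagen loci, 13.6%, against 9.10% of all 24067 symbols. This window includes the whole locus, and the shares were not matched for locus length. The median locus was 115 kb for the 44 members and 24.5 kb for all genes tested in ASC. Of the 18 members with a ratio in ASC, 1 had such a peak, Col19a1, against 12.6% of the genes tested. The highest-scoring one, at chr17:34168539-34168840 in mm9, with an authors' score of 370 and a deposited fold of 16.7, lay 7.77 kb outside Col11a2 and 19 bp from an end of the Slc39a7 locus. The peaks near Col4a3 and Col4a4 had authors' scores of 79 and 49, and lay 2.78 kb and 6.64 kb outside these loci, 78 bp from an end of the Mff locus and 1287 bp from an end of the Rhbdd1 locus. The peaks inside Col6a5, Col9a3 and Col19a1 had authors' scores of 58, 58 and 48, where the median of the list was 48. Of the peaks of these 6 members, those near Col11a2 and Col4a3 were among the 350 of the list with an authors' q of at most 5%. Within 2 kb, 3 of the 44 members had a summit, 6.82% against 6.94% of all symbols, and within 50 kb 9 had, 20.5% against 17.7%. No summit of the list lay within 10 kb of Col4a1, Col4a2, Col3a1, Col5a1, Col5a2, Col1a1, Col1a2, Col8a1 or Col18a1. The list comes from 1 library with 1 input.

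RefSeq promoter windows were at hand for 35 of the 44 members, as 38 windows of 300 bases. No window was at hand for Col1a1, Col2a1, Col4a3, Col5a2, Col9a3, Col12a1, Col14a1, Col22a1 or Col26a1. A YY1 motif, searched as AANATGGC on both strands, was in 0 of the 38, against 6.05% of 32851 windows of all genes. This says only that these letters are not in the windows. GGGCGG was in 23 of 38 windows, 60.5%, against 35.7% of all windows. CCAAT was in 13 of 38, 34.2%, against 37.4%, and TATAAA in 5 of 38, 13.2%, against 13.6%. All were searched on both strands, and matches of different motifs may share letters. The median share of G and C was 59.8% in the members' windows and 52.7% in all.

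The genes that modify, fold and trim collagen chains, inside the cell and after secretion, were described as a list of their own. Of a list of 27 processing genes, 26 were in both tables and 21 had a ratio. In ASC 1 was at least 2-fold lower in iKO and 0 higher, with a median log2 ratio of −0.31, against the 8.26% of genes lower named above. The lowest was P3h2, a prolyl 3-hydroxylase that acts on type IV collagen, at 1.24 FPKM in ASC iKO and 8.54 FPKM in ASC WT, a log2 ratio of −2.09. Adamts14, which removes the N-propeptide of fibrillar procollagens, stood at 21.1 FPKM in ASC iKO and 42.7 FPKM in ASC WT, a log2 ratio of −0.98. The highest was Ppib, a prolyl isomerase, at 339 FPKM in ASC iKO and 214 FPKM in ASC WT. P3h4 followed, at 28.9 FPKM in ASC iKO and 23.7 FPKM in ASC WT. In FISC 0 of 21 were past 2-fold in either direction, with a median of −0.07. Of all genes tested there, 0.721% were lower and 0.677% higher, so 0 of 21 is close to the background. There the lowest were Adamts14 at −0.61 and Bmp1, the C-propeptidase, at −0.46, and the highest P3h3 at 0.32 and Plod2 at 0.28.

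Cross-linking enzymes join collagen chains after secretion. Of 5 genes 3 had a ratio in ASC, with 2 lower in iKO, against 8.26% of all genes. Lox, lysyl oxidase, stood at 2.45 FPKM in ASC iKO and 8.93 FPKM in ASC WT, and Loxl1 at 3.49 FPKM in ASC iKO and 10.4 FPKM in ASC WT. Loxl3 had a log2 ratio of −0.31. In FISC 1 of 5 was lower, against 0.721% of all genes. Loxl2 stood at 29.9 FPKM in FISC iKO and 72.3 FPKM in FISC WT, a log2 ratio of −1.25, while it was below 1 FPKM in both ASC libraries. Lox was at −0.32, Loxl1 at 0.05 and Loxl4 at 0.27 in FISC, where Loxl4 passed the filter through the iKO library alone. The median log2 ratio was −1.34 over the 3 genes in ASC and −0.04 over the 5 in FISC.

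Of 12 collagen receptor genes, 5 had a ratio in ASC, all below 0 with a median of −0.58. Of all genes tested, 50.2% lay below 0. Calcr passed the filter through the WT library alone, so its direction was fixed. Of the 5, 1 was at least 2-fold lower, against 8.26% of all genes. This was Mrc2, an endocytic receptor that takes up collagen fragments, at 5.05 FPKM in ASC iKO and 11.7 FPKM in ASC WT. Ddr2, a receptor tyrosine kinase for fibrillar collagen, stood at 26.4 FPKM in ASC iKO and 46.4 FPKM in ASC WT, and in FISC at 32.4 FPKM in iKO and 60.0 FPKM in WT, its log2 ratios being −0.79 and −0.87. Ddr1 was at 28.1 FPKM in ASC iKO and 41.5 FPKM in ASC WT. Calcr, the receptor through which type V collagen acts in mouse satellite cells, was at 0.512 FPKM in ASC iKO and 1.14 FPKM in ASC WT, and at 43.8 FPKM in FISC iKO and 42.8 FPKM in FISC WT. In FISC 0 of 9 receptors were past 2-fold, against 0.721% of all genes lower and 0.677% higher, with a median of −0.23. Itga10 was the highest at 0.42, then Mrc2 at 0.08, and Adgrg1 was the lowest after Ddr2 at −0.35. Itga10 passed the filter there through the iKO library alone, and Itga1, Itga11 and Adgrg1 through the WT library alone, so their direction was fixed.

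Among 10 partners that bind fibrils, 6 had a ratio in ASC and 2 were lower in iKO, against 8.26% of all genes, with a median of −0.69. Matn2, a filament-forming matrilin, stood at 1.55 FPKM in ASC iKO and 5.49 FPKM in ASC WT, and Bgn, the proteoglycan biglycan, at 35.3 FPKM in ASC iKO and 77.4 FPKM in ASC WT. Dcn, the related decorin, was at 5.43 FPKM in ASC iKO and 4.95 FPKM in ASC WT, and Lum, lumican, had a log2 ratio of −0.25. In FISC 0 of 10 were past 2-fold, against 0.721% of all genes lower and 0.677% higher, with a median of −0.26. Bgn was at 159 FPKM in FISC iKO and 251 FPKM in FISC WT, while Dcn was at 144 FPKM in FISC iKO and 104 FPKM in FISC WT. Tnxb, tenascin X, had a log2 ratio of −0.61 and Fmod, fibromodulin, of 0.39.

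**Figure D5:**
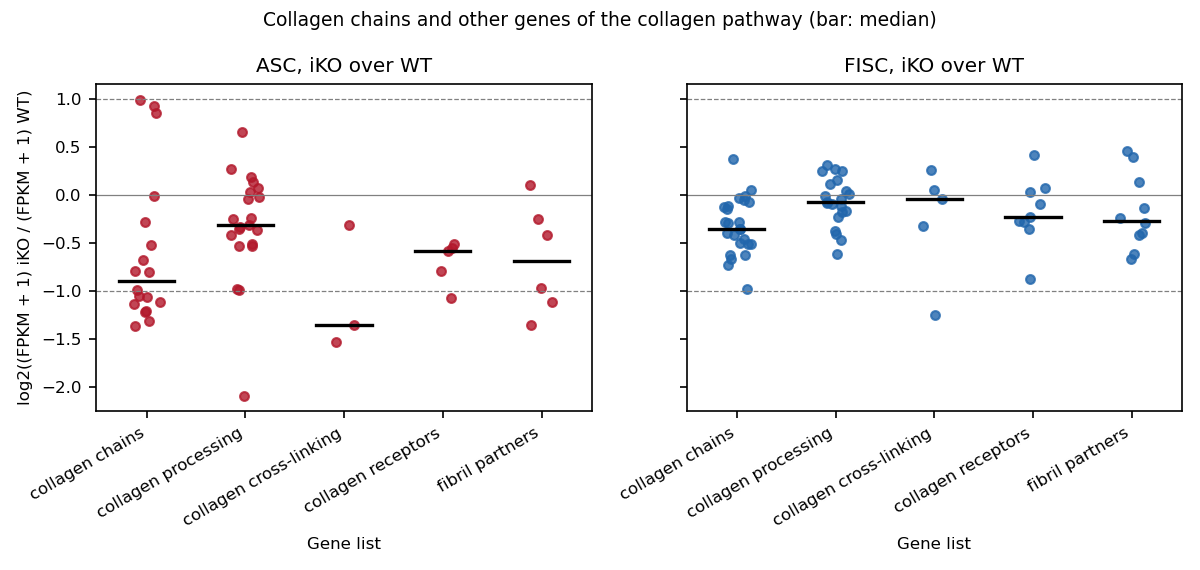
Log2 ratio of FPKM + 1, iKO over WT, for the collagen chains and for the genes of the processing, cross-linking, receptor and fibril partner lists, in activated and in freshly isolated cells. In activated cells the median is −0.89 for the chains and −0.31 for the processing genes.

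Collagen genes are also expressed by other cells of muscle, and their markers differed between the states. The 10 fibroblast markers summed to 9.47 FPKM in ASC iKO and 11.4 FPKM in ASC WT, with 4 and 3 of them at 1 FPKM or more, and to 261 FPKM in FISC iKO and 277 FPKM in FISC WT, with 8 in each. Pdgfra stood at 0.344 FPKM in ASC iKO and 0.827 FPKM in ASC WT, and at 1.14 FPKM in FISC iKO and 1.11 FPKM in FISC WT. Dpt was at 0.337 FPKM in ASC iKO and 0.317 FPKM in ASC WT, and at 92.1 FPKM in FISC iKO and 146 FPKM in FISC WT, a log2 ratio of −0.66 in FISC. The other ratios of the list in FISC lay on both sides of 0, with 4 of 8 below 0, beside 50.4% of all genes, and a median of −0.07. Ly6a was at −0.42 there, Clec3b at 0.38 and Dcn at 0.46. In ASC the ratio was −0.92 for Thy1, −0.25 for Lum, 0.11 for Dcn and 0.73 for Clec3b. Clec3b passed the filter there through the iKO library alone, so its direction was fixed. The fibroblast marker sums were thus low in both activated libraries and higher in both freshly isolated ones. Dpt and Dcn held most of the FISC sums, Dcn at 144 FPKM in FISC iKO and 104 FPKM in FISC WT. Pi16 and Mfap5 stayed below 1 FPKM in every library.

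The 6 tenocyte markers summed to 38.3 FPKM in ASC iKO and 21.8 FPKM in ASC WT, and to 156 FPKM in FISC iKO and 127 FPKM in FISC WT. Scx made up most of the ASC sum, at 35.9 FPKM in ASC iKO and 18.5 FPKM in ASC WT, whereas Tnmd was below 1 FPKM in both. Thbs4 and Mkx had log2 ratios of −0.48 and −0.25 in ASC, where Thbs4 passed the filter through the WT library alone. In FISC, Kera was at −0.40, Mkx at −0.11, Fmod at 0.39 and Scx at 0.40. The 7 pericyte and smooth muscle markers summed to 24.1 FPKM in ASC iKO and 41.6 FPKM in ASC WT, and to 224 FPKM in FISC iKO and 226 FPKM in FISC WT. Acta2, smooth muscle actin, held most of the ASC sums, at 21.8 FPKM in ASC iKO and 36.4 FPKM in ASC WT, a log2 ratio of −0.71. Notch3 was at 1.44 FPKM in ASC iKO and 3.53 FPKM in ASC WT, a log2 ratio of −0.89. Only these 2 of the 7 markers had a ratio in ASC. Notch3 was the highest of the list in FISC, at 130 FPKM in FISC iKO and 131 FPKM in FISC WT. Together with Acta2, at 74.7 FPKM in FISC iKO and 75.3 FPKM in FISC WT, it held most of the FISC sums. The defining markers were far lower. Rgs5 was at 6.12 FPKM in FISC iKO and 9.31 FPKM in FISC WT, and Myh11 at 1.86 FPKM in FISC iKO and 2.11 FPKM in FISC WT. In FISC the ratio was −0.53 for Rgs5, −0.12 for Myh11, 0.29 for Pdgfrb and 0.60 for Kcnj8. Endothelial, immune and adipocyte markers each summed to at most 20.3 FPKM in any library. The immune markers summed to 15.5 FPKM in ASC iKO and 4.23 FPKM in ASC WT, which Cd14 and Cd68 made up for the most part. Cd14 was at 9.75 FPKM in ASC iKO and 2.80 FPKM in ASC WT, and Cd68 at 5.16 FPKM in ASC iKO and 1.36 FPKM in ASC WT. In FISC, Cd14 was at −0.22, Lyz2 at −0.17 and Cd68 at 0.04. Of the endothelial genes, Egfl7 was at −0.32 and Tek at 0.50 in ASC, where Tek passed the filter through the iKO library alone. The 4 with a ratio in FISC, Pecam1, Cdh5, Egfl7 and Tek, lay between −0.23 and −0.18. Cfd, an adipocyte marker, was at 8.43 FPKM in FISC iKO and listed at 0 in FISC WT. Pecam1, Cdh5, Rgs5 and Myh11 were below 1 FPKM in both ASC libraries. Ptprc was at 0 in both ASC libraries and Csf1r and Plin1 at 0 in ASC iKO. The decorin and lumican genes stand in the fibroblast list as well as among the fibril partners. The 9 satellite cell markers summed to 1037 FPKM in ASC iKO and 1213 FPKM in ASC WT, and to 2743 FPKM in FISC iKO and 2902 FPKM in FISC WT. In ASC 2 of the 9 were at least 2-fold lower, against 8.26% of all genes, Pax7 at −2.03 and Vcam1 at −1.14, while Myod1 was at −0.22 and Sdc4 at 0.40. In FISC none was past 2-fold, against 0.721% of all genes lower and 0.677% higher. Vcam1 was at −0.54 there, Itga7 at −0.34, Pax7 at 0.34 and Myod1 at 0.44. The part of other cells in the collagen values was not tested.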

How the data were processed

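The authors deposited FPKM per gene, 1 table for the ASC pair and 1 for the FISC pair, per the file headers. TopHat2, Cufflinks 2.2.1, MACS2 2.1.0 and the mm9 build are listed, with no roles, in the submitters' processing notes. The sources used here do not give annotation, strand setting, filters or scaling between libraries. The total depth of a library cannot be read from FPKM. Relative depth was read from the steps of genes at or below 0.3 FPKM in both libraries. The authors deposited 1 narrowPeak list, with a whole-number score, a fold over background, −log10 p and −log10 q per peak and the offset of the summit. It came from 1 library, and its filter is unknown.

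Ratios were log2((FPKM + 1)/(FPKM + 1)) where 1 library or both reached 1 FPKM. The pseudocount understates the ratios of low genes. The 2-fold rule concerns size and tests nothing. Ratios of ASC over FISC were computed after scaling each pair to the same 75th percentile. Scripts (Python 3.11.15, pandas 2.3.3, numpy 2.4.6) were tested on simulated data. Members reaching 1 FPKM were eligible by name. From each other list described, the 2 highest and 2 lowest ratios and the defining markers were named; other genes of these lists were chosen after their values were seen. Members and lists were chosen with earlier results of these data known. Alternatives were another pseudocount, filter or scaling, subtraction of the median of the length class, and other peak distances. Motif positions and sequences are from RefSeq (GRCm38.p6), and coordinates were not converted between builds. Columns were matched to libraries by state and genotype.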

Additional observations from a re-analysis of the deposited data

Results flagged for a closer look

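Col2a1 and Col18a1 had ratios of opposite direction in the 2 states. For Col2a1 the direction in ASC was fixed, as it passed the filter there through the iKO library alone. The log2 ratio of Col2a1, iKO over WT, was 0.85 in ASC and −0.62 in FISC, a difference of 1.47, and its levels were at most 2.78 FPKM in any library. The log2 ratio of Col18a1 was 0.94 in ASC and −0.62 in FISC, a difference of 1.56. With 1 library per group the difference was not tested.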

How the results depend on the processing

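The count of 8 collagen genes at least 2-fold lower in ASC iKO became 5 at a filter of 5 FPKM, where 8 members were tested. Of all genes at that filter, 715 of 8733 were lower. After subtraction of the length-class median the count became 2, and 750 of all 11215 genes were lower. The members' median in ASC of −0.89 became −0.036 with no filter, where members near 0 FPKM enter. In FISC the count of 0 became 1 at a pseudocount of 0.1, through Col6a6. Genes lower and higher were then 217 and 194 of all tested in FISC, in place of 81 and 76. At 5 FPKM in either library 43 genes were higher in FISC, with 1 FPKM in both libraries 37, and after the length subtraction 632 in ASC. The median of ASC over FISC became −3.14 in WT and −3.23 in iKO at a pseudocount of 0.1, and −2.97 in iKO at 5 FPKM. Within 2 kb, 3 members had a peak, 6.82% against 6.94% of all symbols. Signs turned for Col5a3 at 0.16 and Col13a1 at 0.20 in ASC and Col17a1 at 0.0055 in FISC (length subtraction), for Col6a1 at 0.014 and Col17a1 at 0.014 in FISC (upper quartile), and for Col5a2 at −0.17 and Col8a1 at −0.49 in iKO, ASC over FISC (equal sums). Filters asking for a mean of 1 FPKM, or 1 FPKM in both libraries, were chosen after seeing the data. With them, 8 of 16 and 6 of 12 members were lower in ASC. No paired analysis was possible because each group has 1 library and the labels give no replicate numbers. For the same reason no replicate could be left out. Depth is unknown, so the reads behind a level cannot be given.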

Other observations

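The 18 members that stayed below 1 FPKM in all 4 libraries include Col4a3 and Col4a4, type IV chains found in specialised basement membranes such as that of the kidney glomerulus, and Col10a1, the collagen of hypertrophic cartilage.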
